A study of Mus musculus with 24 samples.

Results

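The genes described here encode the proteasome, its regulators and its assembly factors. They were taken by symbol: every gene whose single annotated symbol is Psma, Psmb, Psmc, Psmd, Psme, Psmf or Psmg followed by a number. The rule found 47 genes among the 18193 genes named on the array, with 100 probe sets between them. All 47 passed a filter that removed probe sets below the array median on nearly every array. The filtered values were scaled to each probe set's own median, and 43349 of 45101 probe sets on the array passed. Passing therefore did not show that these 47 genes were expressed. They divided into 8 alpha-ring genes, 4 structural beta-ring genes, 3 constitutive and 3 immune catalytic genes, the thymic catalytic gene Psmb11, 6 ATPases and 3 other genes of the 19S base, 8 lid genes, 3 chaperones of 19S assembly, 4 regulators and 4 chaperones of 20S assembly.

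RNA was measured on Affymetrix whole-genome mouse arrays in bone marrow-derived macrophages from C57Bl/6 mice. All cultures were grown for 10 days with 20 ng/ml M-CSF, the growth factor that drives marrow cells to macrophages. Marrow from 3 mice labelled Pparg+/-LysCre (mice 1 to 3) and 3 labelled Pparg fl/-LysCre (mice 4 to 6) was split into 4 cultures each, with or without 20 ng/ml IL-4 and with vehicle (DMSO and ethanol) or 1 μM rosiglitazone (RSG), a PPARγ agonist. This gave 24 arrays in 8 groups of 3. The number in each label, 1 to 6, was read as the mouse. All mice, controls included, carried LysCre, a Cre driven by the lysozyme promoter of myeloid cells, and a null Pparg allele beside a wild-type or a floxed one. No group was therefore wild-type, and the labels give no age.

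The proteasome is the barrel-shaped protease that degrades ubiquitin-tagged proteins. Its 20S core has outer rings of alpha subunits and inner rings of beta subunits, and 3 of the beta subunits cut: PSMB6 after acidic residues, PSMB7 after basic residues and PSMB5 after hydrophobic residues. Under interferon these are exchanged for PSMB9, PSMB10 and PSMB8, respectively, which gives the immunoproteasome, known for producing peptides for MHC class I. A 19S cap recognizes, unfolds and feeds in the substrate, and the PA28 ring (PSME1 with PSME2) opens the core without ubiquitin or ATP.

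The values are ratios: by the methods, each probe set was divided by its own median over the arrays, so a ratio of 1 is close to that gene's typical level, and levels of different genes cannot be set against each other. Changes are log2 differences of group means of a gene's averaged probe sets. "Passed" means an adjusted p under 0.05 in limma with Benjamini-Hochberg adjustment over the 17737 genes tested. "Rose" and "fell" are used for these genes.

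Retnla and Arg1, markers of alternative activation, were listed at the lowest value of the table, 0.01, on all 12 arrays without IL-4 and between 1.99 and 3.14 on all 12 with it, and Chil3, the chitinase-like protein Ym1, rose by 4.02 on the log2 scale. Pparg was not lower in the cultures labelled Pparg fl/-. Its ratio was 0.511 to 0.579 in Pparg+/- and 0.578 to 1.09 in Pparg fl/- cultures without IL-4 and with vehicle, and it was higher in Pparg fl/- cultures under IL-4 and RSG, by 1.29 on the log2 scale (adjusted p = 0.027 in limma). Probe sets of this array lie near the 3′ end, and the sources used here do not place the floxed part under them, so this measurement checks nothing about recombination. The library of the Pparg+/- mouse 1 culture without IL-4 or RSG stood apart for interferon-related genes. It had the highest ratio of the 12 control arrays for 1407 of 17737 genes (7.93%), for 7 of 47 proteasome genes, for 8 of 12 genes of MHC class I peptide loading and for 6 of 9 genes of interferon-gamma signalling. There, Irf1 had a ratio of 3.89 against 0.576 to 1.19 on the other 11 control arrays, and Psmb9 had 2.37 against 0.78 to 1.28. Results on the immune subunits are therefore given with and without this array. It was singled out by values of these same genes, so their adjusted p without it are descriptions and not independent tests.

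Promoters of the catalytic genes are shown because the constitutive and immune subunits are known to answer to different regulators. The sequences are RefSeq's, from GRCm38.p6, on the strand of the gene, with 250 bases before the start of transcription and 50 after it. Capitals mark letters that match an antioxidant response element (ARE, TGACNNNGC, bound by NRF1 and NRF2), a STAT6-type site (TTC and GAA 4 bases apart) or an interferon response element (ISRE, GAAA and GAAA 2 bases apart), searched on both strands. Positions are those of the first base of a match relative to the start.
Psmb5 (chr14:54617946-54618245, minus strand): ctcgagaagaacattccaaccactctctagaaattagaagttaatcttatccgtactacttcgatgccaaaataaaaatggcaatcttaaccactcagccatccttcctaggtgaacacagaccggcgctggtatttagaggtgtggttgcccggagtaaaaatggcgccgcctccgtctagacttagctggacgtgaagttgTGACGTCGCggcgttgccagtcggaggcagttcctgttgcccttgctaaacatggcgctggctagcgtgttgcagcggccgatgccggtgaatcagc
Psmb6 (chr11:70525107-70525406, plus strand): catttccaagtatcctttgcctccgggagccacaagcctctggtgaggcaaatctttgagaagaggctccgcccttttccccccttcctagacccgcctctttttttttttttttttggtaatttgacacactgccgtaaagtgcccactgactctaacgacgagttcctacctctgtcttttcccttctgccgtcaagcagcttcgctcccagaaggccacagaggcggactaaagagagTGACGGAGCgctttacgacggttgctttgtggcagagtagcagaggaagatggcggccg
Psmb8 (chr17:34197945-34198244, plus strand): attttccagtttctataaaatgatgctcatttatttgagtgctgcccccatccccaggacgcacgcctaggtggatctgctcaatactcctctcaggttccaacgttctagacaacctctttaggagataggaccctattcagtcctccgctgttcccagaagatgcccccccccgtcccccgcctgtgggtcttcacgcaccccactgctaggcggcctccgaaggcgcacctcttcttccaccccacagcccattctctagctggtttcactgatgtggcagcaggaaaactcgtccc
Psmb9 (chr17:34187281-34187580, minus strand): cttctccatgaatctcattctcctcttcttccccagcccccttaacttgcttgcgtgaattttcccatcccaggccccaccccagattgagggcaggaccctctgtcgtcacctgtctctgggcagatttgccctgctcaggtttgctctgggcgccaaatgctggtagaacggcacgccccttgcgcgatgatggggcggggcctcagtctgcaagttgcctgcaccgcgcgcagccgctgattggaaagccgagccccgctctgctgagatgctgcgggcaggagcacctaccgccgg
Psmb10 (chr8:105938343-105938642, minus strand): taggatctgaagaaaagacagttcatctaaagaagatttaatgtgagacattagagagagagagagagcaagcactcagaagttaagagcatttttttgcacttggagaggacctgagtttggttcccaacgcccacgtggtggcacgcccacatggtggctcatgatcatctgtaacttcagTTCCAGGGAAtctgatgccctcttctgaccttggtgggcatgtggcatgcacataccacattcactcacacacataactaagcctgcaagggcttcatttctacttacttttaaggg
Psmb5 and Psmb6 each held an ARE match, at -47 and -9, respectively. Psmb10 held a match to the STAT6 spacing at -67, and Psmb8 and Psmb9 held none of these letters in this window. No matches overlapped in these promoters. Of the 47 genes, 39 had a promoter in the table, Psmb7 not among them. The ARE letters were in 6 of these 39 promoters (15.4%) against 14% of all 27025 genes with a promoter, the STAT6 letters in 1 (2.56%) against 8.01%, and the ISRE letters in 5 (12.8%) against 3.99%. Promoters with ISRE letters were those of Psmb3, Psmd4, Psmd9, Psme1 and Psmg4. A match is a description of letters and not of binding.

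Over the 4 IL-4 comparisons together, 24 of the 47 proteasome genes rose and 1, Psmb7, fell. Of all genes tested, 25.3% rose and 16% fell. The genes that rose came from most layers of the particle: 10 of 19 core genes, 9 of 17 genes of the 19S cap, 3 of 4 regulators and 2 of 4 chaperones of core assembly. On 12 IL-4 against 12 control arrays, Psma7, Psma8, Psmb5 and Psmd14 did not overlap and were above, 4 of 47 against 5.87% of all genes, and no proteasome gene was wholly below (4.96% of all genes). The changes were mostly small. Only Psmb10, Psmb5, Psmg4 and Psmc6 rose at least 1.5-fold, 4 of 47 against 10.5% of all genes tested, and none fell as far (9.55%). The median change was 0.24 on the log2 scale for proteasome genes and 0.12 for all genes tested. Because the median of all genes itself shifted, the fit was repeated with array medians centred, and 20 proteasome genes then rose and 5 fell: Psma4, Psmb1, Psmc1 and Psme3 no longer passed, and Psmb2, Psmd1, Psmd9 and Psmd13 fell together with Psmb7. Quantile normalization gave the same genes. Shares of all genes that rose or fell are not given for the centred and quantile-normalized fits.

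**Figure D1:**
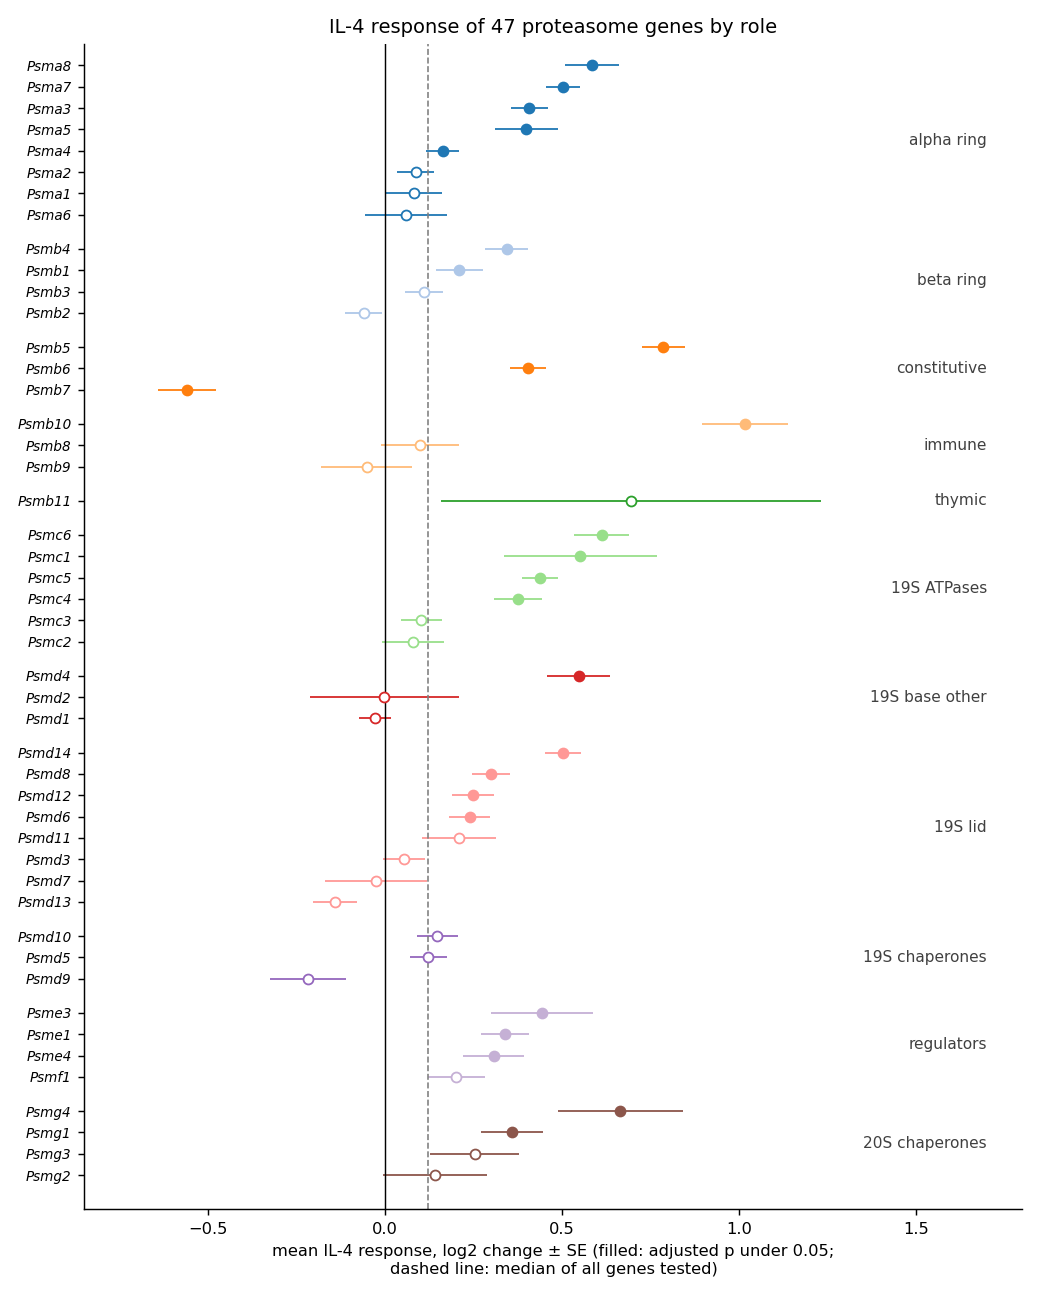
Mean IL-4 response of each proteasome gene (horizontal axis, log2 change with SE as bars, 24 arrays), grouped by role; filled points passed (adjusted p under 0.05 in limma), open points did not, and the dashed line is the median of all genes tested, 0.12. Psmb10 lies farthest right at 1.02 and Psmb7 is the only filled point left of 0, at -0.56.

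The constitutive catalytic subunits did not move together. Psmb5 and Psmb6 rose and Psmb7 fell. Psmb5 had ratios of 0.722, 0.796 and 0.683 in Pparg+/- cultures without IL-4 and with vehicle and of 1.25, 1.515 and 1.35 with IL-4, and with RSG these were 0.689, 0.723 and 0.706 without IL-4 and 1.145, 1.22 and 1.29 with it. In Pparg fl/- cultures with vehicle it had 0.931, 0.889 and 0.749 without IL-4 and 1.07, 1.415 and 1.48 with it, and with RSG 0.835, 0.79 and 0.748 without IL-4 and 1.35, 1.445 and 1.445 with it. Every IL-4 array lay above every control array. The mean change was 0.79 ± 0.06 (SE, 1.72-fold, adjusted p = 2e-09), the smallest adjusted p among the 47 genes.

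Psmb6 had ratios of 0.725, 0.947 and 0.793 in Pparg+/- cultures with vehicle and 1.14, 1.27 and 1.15 with IL-4, and of 0.852, 0.899 and 0.796 with RSG and 1.09, 0.999 and 1.11 with RSG and IL-4. Its Pparg fl/- ratios were 0.988, 0.929 and 0.829 with vehicle, 1.16, 1.16 and 1.26 with IL-4, 0.9, 1.00 and 0.882 with RSG and 1.17, 1.175 and 1.23 with RSG and IL-4. The ranges of control and IL-4 arrays overlapped only around 1, and each IL-4 culture was above the control culture of the same mouse and treatment. The mean change was 0.40 ± 0.05 (SE, adjusted p = 2.4e-06).

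Psmb7 went the other way. In Pparg+/- cultures it had ratios of 0.986, 1.00 and 0.884 with vehicle, 0.718, 0.763 and 0.862 with IL-4, 1.00, 1.17 and 1.16 with RSG and 0.759, 0.705 and 0.749 with RSG and IL-4. Cultures of Pparg fl/- mice had 1.68, 1.82 and 1.47 with vehicle, 0.843, 1.36 and 0.808 with IL-4, 1.44, 1.75 and 1.44 with RSG and 1.03, 0.854 and 1.19 with RSG and IL-4. Control and IL-4 arrays overlapped across genotypes but each of 12 IL-4 cultures was below its control culture. The fall was 0.56 ± 0.08 on the log2 scale (a change of -0.56, SE, adjusted p = 1.5e-05). Pparg fl/- cultures without IL-4 held the highest ratios of this gene, and all 6 of them were above all 6 Pparg+/- cultures without IL-4. This was noticed after the values were seen, in cultures of 3 mice per genotype. Neither genotype comparison without IL-4 passed for this gene, and the share of all genes that separated this way is not given.

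Among the immune subunits Psmb10 rose and Psmb8 and Psmb9 did not pass. Psmb10 had ratios of 1.15, 0.513 and 0.549 in Pparg+/- cultures with vehicle, 1.16, 1.225 and 1.14 with IL-4, 0.513, 0.546 and 0.55 with RSG and 0.989, 1.01 and 1.03 with RSG and IL-4. Pparg fl/- cultures had 0.52, 0.548 and 0.592 with vehicle, 1.17, 1.45 and 1.35 with IL-4, 0.441, 0.6755 and 0.721 with RSG and 1.27, 1.40 and 1.26 with RSG and IL-4. Apart from the control array of mouse 1, every control array lay below every IL-4 array. The mean change was 1.02 ± 0.12 (SE, 2.02-fold, adjusted p = 1.1e-06), the largest rise of the 47 genes, and 1.11 ± 0.09 (adjusted p = 1.9e-08) without the control array of mouse 1.

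Psmb8 had ratios of 1.84, 1.05 and 0.996 in Pparg+/- cultures with vehicle, 1.03, 1.14 and 1.15 with IL-4, 1.03, 0.776 and 0.862 with RSG and 1.09, 0.93 and 1.15 with RSG and IL-4. Ratios in Pparg fl/- cultures were 0.981, 0.96 and 1.085 with vehicle, 0.819, 1.13 and 1.26 with IL-4, 0.855, 0.943 and 0.932 with RSG and 0.9205, 1.53 and 0.891 with RSG and IL-4. The arrays with and without IL-4 overlapped throughout. The mean change was 0.10 ± 0.11 (SE, adjusted p = 0.52), and 0.17 ± 0.09 (adjusted p = 0.18) without the control array of mouse 1.

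Psmb9 had ratios of 2.37, 0.937 and 1.03 in Pparg+/- cultures with vehicle, 1.02, 0.9045 and 0.945 with IL-4, 0.885, 0.976 and 0.979 with RSG and 0.984, 0.831 and 0.954 with RSG and IL-4. In Pparg fl/- cultures it had 0.893, 1.02 and 1.08 with vehicle, 0.9705, 1.43 and 1.07 with IL-4, 0.78, 1.28 and 1.24 with RSG and 1.12, 1.22 and 1.09 with RSG and IL-4. Here too the arrays overlapped. The mean change was -0.05 ± 0.13 (SE, adjusted p = 0.78), and it had the opposite sign, 0.05 ± 0.09 (adjusted p = 0.67), without the control array of mouse 1.

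**Figure D2:**
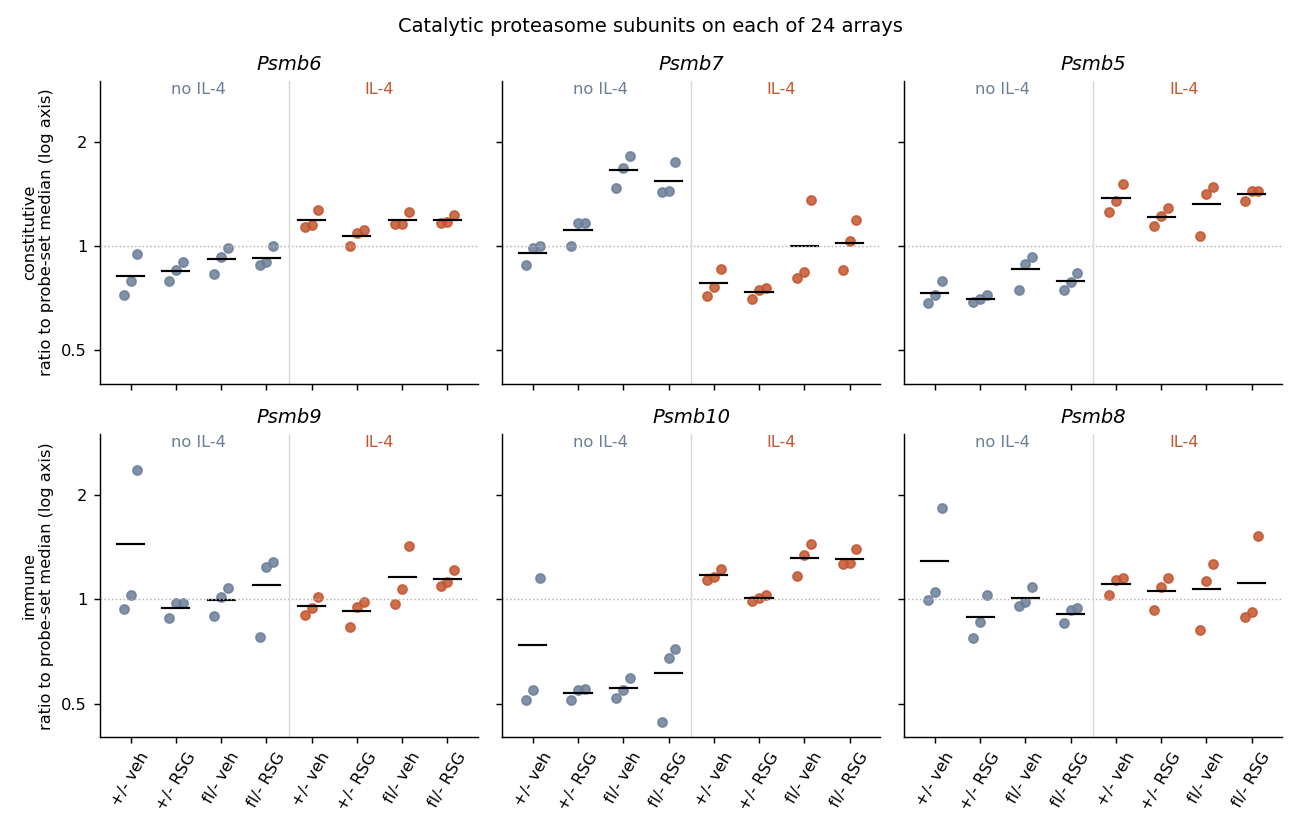
Ratio to the probe-set median (vertical log axis) of the constitutive catalytic subunits (top) and of their immune counterparts below them on each of 24 arrays; points are cultures of single mice, bars are arithmetic means of 3, veh is vehicle. Psmb5, Psmb6 and Psmb10 shift up and Psmb7 shifts down with IL-4, and the array of mouse 1 without IL-4 or RSG is the highest point of each immune subunit among arrays without IL-4.

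The contrast between immune and constitutive subunits therefore depended on the catalytic site. It was taken per array as the log2 ratio of an immune subunit minus that of its counterpart, each relative to its own median. Psmb5, Psmb6, Psmb7, Psmb9 and Psmb10 rested on 1 probe set each, so no second probe set could check their changes. At the PSMB7 site the difference Psmb10 minus Psmb7 lay between -1.73 and 0.23 on the 12 control arrays and between 0.09 and 0.74 on the 12 IL-4 arrays, and it was higher with IL-4 in 12 of 12 pairs of cultures. Its mean change was 1.58. Without the control array of mouse 1 the control arrays ended at -0.69, below every IL-4 array, and the mean change was 1.66. At the PSMB5 site the difference Psmb8 minus Psmb5 lay between 0.03 and 1.35 without IL-4 and between -0.70 and 0.08 with it, lower in 12 of 12 pairs, with a mean change of -0.69. The highest control value was 0.58 and the mean change -0.61 without the array of mouse 1. At the PSMB6 site the difference Psmb9 minus Psmb6 was lower in 10 of 12 pairs, with a mean change of -0.46, and -0.33 without that array. There the change was largest in Pparg+/- cultures with vehicle, at -1.002 with the array and -0.49 without it. It was -0.37 in Pparg+/- cultures with RSG, -0.18 in Pparg fl/- cultures with vehicle and -0.27 in Pparg fl/- cultures with RSG. Averaged over the sites, immune minus constitutive changed by 0.14, with -0.34 in Pparg+/- cultures with vehicle, 0.20 in Pparg+/- cultures with RSG, 0.43 in Pparg fl/- cultures with vehicle and 0.29 in Pparg fl/- cultures with RSG. Without the control array of mouse 1 the mean was 0.24 and the first of these 0.05. The averaged value lay between -0.63 and 1.09 over the arrays without IL-4 (0.08 at most without that array) and between -0.26 and 0.28 over those with it, so the states overlapped, and no test was made of a score over members.

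**Figure D3:**
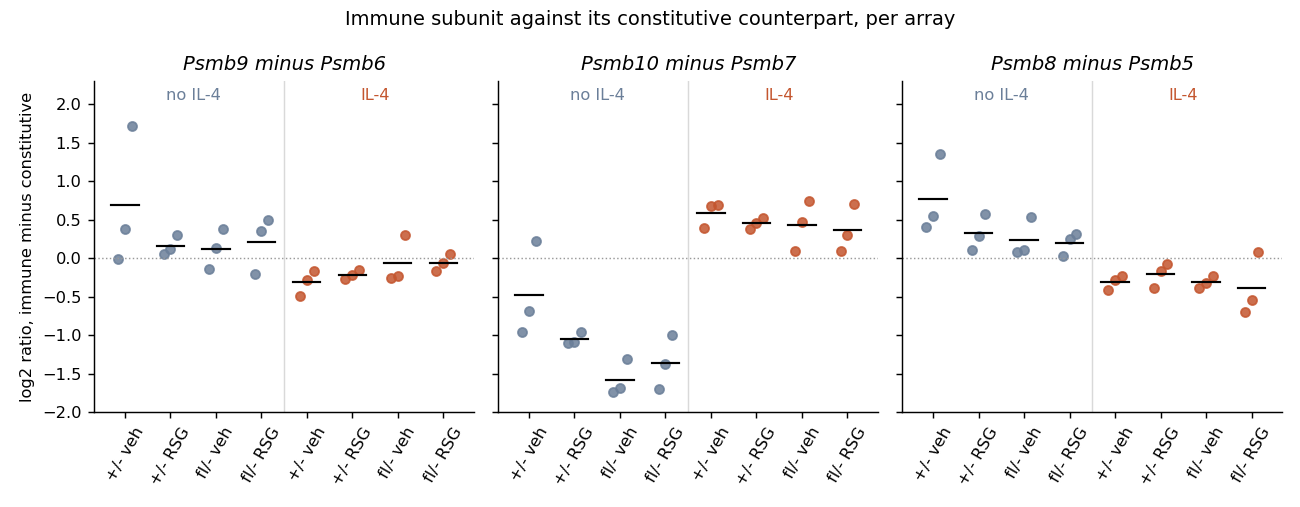
Immune minus constitutive log2 ratio at the PSMB6, PSMB7 and PSMB5 sites (vertical axis) on each of 24 arrays, with bars for the mean of 3. Psmb10 minus Psmb7 is above 0 on all IL-4 arrays, while Psmb8 minus Psmb5 is above 0 on all control arrays.

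The thymic catalytic gene Psmb11, which is known from cortical thymic epithelium, was the most variable member, with ratios from 0.167 to 2.24 without IL-4 and from 0.171 to 2.67 with it (change 0.69 ± 0.54 SE, adjusted p = 0.34).

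In the alpha ring, which gates the core, 5 of 8 genes rose, against 25.3% of all genes tested. Psma7 had a lowest, median and highest ratio of 0.829, 0.859 and 0.963 on the 12 control arrays and of 1.06, 1.25 and 1.42 on the 12 IL-4 arrays, with no overlap (change 0.50 ± 0.05 SE, adjusted p = 4.5e-08). Psma8, the spermatogenic paralog of Psma7, had 0.728, 0.87 and 0.98 without IL-4 and 1.02, 1.2 and 1.745 with it, again without overlap (0.58 ± 0.08 SE, adjusted p = 3e-06). It rested on a single probe set, and whether that probe set also reads Psma7 RNA was not tested. Psma3, Psma5 and Psma4 rose by 0.41, 0.40 and 0.16, respectively. Psma4 did not pass with medians centred or without mouse 6. Psma1, Psma2 and Psma6 had changes of 0.08, 0.09 and 0.06 and did not pass. Of the structural beta genes, Psmb4 rose by 0.34 and Psmb1 by 0.21, while Psmb3 had a change of 0.11 (adjusted p = 0.12) and Psmb2 one of -0.06 (adjusted p = 0.39). Psmb1 did not pass with medians centred or without mouse 2, 3, 5 or 6.

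The ATPases of the 19S base unfold the substrate. Psmc6 had ratios of 0.691, 0.814 and 1.08 (lowest, median, highest) on control arrays and of 1.01, 1.3 and 1.71 on IL-4 arrays, a change of 0.61 ± 0.08 (SE, 1.53-fold, adjusted p = 2.2e-06). The ranges overlapped because the RSG control culture of mouse 4, at 1.08, was above 3 IL-4 cultures, but each IL-4 culture was above its own control. Its 3 probe sets had changes of 0.26, 0.73 and 0.85. Psmc5 rose by 0.44 ± 0.05 and Psmc4 by 0.37 ± 0.07 (SE). Psmc1 was the weakest call, with ratios of 0.195, 0.847 and 1.54 on control arrays and 0.731, 1.18 and 1.85 on IL-4 arrays (0.55 ± 0.22 SE, adjusted p = 0.049). With the mouse as a block its adjusted p was 0.074, and it also missed the threshold without mouse 1, 3 or 4 (adjusted p = 0.18, 0.18 and 0.11). Psmc2 and Psmc3 had changes of 0.08 and 0.10 and did not pass.

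Psmd4, a ubiquitin receptor of the cap, had ratios of 0.619, 0.818 and 0.969 on control arrays and 0.918, 1.17 and 1.45 on IL-4 arrays, which overlapped (0.55 ± 0.09 SE, adjusted p = 4.7e-05). Its scaffold neighbours Psmd1 and Psmd2 had changes of -0.03 and -0.0030, with adjusted p of 0.66 and 0.99. In the lid, which removes ubiquitin chains before degradation, 4 of 8 genes rose, against 25.3% of all genes tested. Psmd14, the deubiquitinase of the lid, had 0.735, 0.849 and 0.959 on control arrays and 1.04, 1.15 and 1.42 on IL-4 arrays without overlap, a change of 0.50 ± 0.05 (SE, adjusted p = 1.4e-07). Psmd8, Psmd12 and Psmd6 rose by 0.30, 0.25 and 0.24, respectively. The changes of Psmd11, Psmd3, Psmd7 and Psmd13 were 0.21, 0.05, -0.03 and -0.14, none of which passed. Psmd11 did rise when its probe sets were summarized by their median or by the probe set with the smallest spread. Psmd13 also fell without mouse 5, beside the centred and quantile-normalized fits named above.

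None of the chaperones of 19S assembly passed: Psmd10, Psmd5 and Psmd9 had changes of 0.15, 0.12 and -0.22, with adjusted p of 0.051, 0.068 and 0.12. Among the chaperones of core assembly, Psmg4 had ratios of 0.365, 0.765 and 1.01 on control arrays and 0.669, 1.16 and 1.62 on IL-4 arrays, with overlap and with 10 of 12 pairs of cultures higher under IL-4 (0.66 ± 0.18 SE, 1.58-fold, adjusted p = 0.0046). Psmg1 rose by 0.36 ± 0.09 (SE, adjusted p = 0.0024). Psmg3 and Psmg2 had changes of 0.25 and 0.14 and did not pass.

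The regulators Psme1, Psme3 and Psme4 rose. Psme1, the alpha subunit of PA28 and like the immune subunits a gene known to answer to interferon, had ratios of 1.21, 0.888 and 0.848 in Pparg+/- cultures with vehicle, 1.06, 1.11 and 1.13 with IL-4, 0.809, 0.842 and 0.785 with RSG and 1.07, 0.928 and 1.02 with RSG and IL-4. In Pparg fl/- cultures it had 0.873, 0.845 and 0.846 with vehicle, 0.982, 1.39 and 1.21 with IL-4, 0.806, 1.05 and 0.951 with RSG and 1.19, 1.3 and 1.18 with RSG and IL-4. Mouse 1 again held the highest control value. The change was 0.34 ± 0.07 (SE, adjusted p = 0.00045) and 0.38 ± 0.06 without that array (adjusted p = 5.5e-05). Psme3, the nuclear PA28γ, rose by 0.44 ± 0.14 (adjusted p = 0.017) and Psme4, the PA200 activator, by 0.31 ± 0.09 (adjusted p = 0.0069). Psme3 did not pass with medians centred or without mouse 1. Psmf1, the PI31 inhibitor, had a change of 0.20 ± 0.08 (SE, adjusted p = 0.051), and with the mouse as a block it passed (adjusted p = 0.042).

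PA28 needs Psme2 beside Psme1, but the probe set for it also carries the symbol of the copy Psme2b and was not a member. Its ratio was 1.39, 0.845 and 0.773 in Pparg+/- cultures with vehicle, 1.13, 1.13 and 1.13 with IL-4, 0.82, 0.83 and 0.7895 with RSG and 1.025, 0.975 and 1.065 with RSG and IL-4. Its Pparg fl/- values were 0.852, 0.845 and 0.839 with vehicle, 1.12, 1.27 and 1.26 with IL-4, 0.837, 0.971 and 0.925 with RSG and 1.24, 1.33 and 1.19 with RSG and IL-4. It was higher with IL-4 in 11 of 12 pairs of cultures, by 0.38 on average on the log2 scale, and the exception was mouse 1 with vehicle.

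The separate IL-4 comparisons, which share no arrays, each called fewer genes. In Pparg+/- cultures with vehicle 14 of 47 proteasome genes rose and 0 fell, against 13.1% and 8.1% of all genes tested. In Pparg fl/- cultures with vehicle 12 rose and 1 fell, against 13.6% and 9.33%. With RSG, 10 rose and 1 fell in Pparg+/- cultures, against 10.9% and 7.57%, and 13 rose and 1 fell in Pparg fl/- cultures, against 12% and 8.61%. At least 1.5-fold, 2 rose and 0 fell in Pparg+/- cultures with vehicle (8.29% and 6.84% of all genes), and 7 rose and 1 fell in Pparg fl/- cultures with vehicle (8.81% and 8.01%). With RSG these counts were 3 and 1 in Pparg+/- cultures (7.05% and 6.37%) and 4 and 1 in Pparg fl/- cultures (7.97% and 7.21%). The counts rested in part on single arrays: without the IL-4 vehicle array of mouse 4, 21 rose and 1 fell in Pparg fl/- cultures with vehicle, and without mouse 3, 1 rose and 0 fell in Pparg+/- cultures with RSG. Shares of all genes are not given for these fits without arrays or mice. The methods' t-test with Benjamini-Hochberg adjustment called 7, 2, 11 and 4 proteasome genes in the same order of comparisons. Of all 17737 genes tested it called 2379, 1187, 2654 and 1797.

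Psma3, Psma7, Psmb10, Psmb5, Psmb6, Psmc5, Psmc6 and Psmd14 rose in all 4 comparisons, and 31 of the 47 genes rose in none of them. The share of all genes that rose in all 4 is not given. Psmb5 changed by 0.90, 0.62, 0.79 and 0.84 in Pparg+/- with vehicle, Pparg fl/- with vehicle, Pparg+/- with RSG and Pparg fl/- with RSG, respectively. Psmb10 changed by 0.77, 1.25, 0.91 and 1.13 in that order, and the first of these was 1.14 without the control array of mouse 1. Psmb7 changed by -0.29 (adjusted p = 0.25), -0.76, -0.59 and -0.60, and passed in all but the first. Whether the response to IL-4 differed with genotype was tested directly, and no proteasome gene passed. The lowest adjusted p there was 0.95, for Psma8. In that test 1 of all genes was higher and 1 lower (0.00564% each), and 0 of the 47 reached an unadjusted p under 0.05 in limma. Of all 17737 genes tested, 969 reached it.

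**Figure D4:**
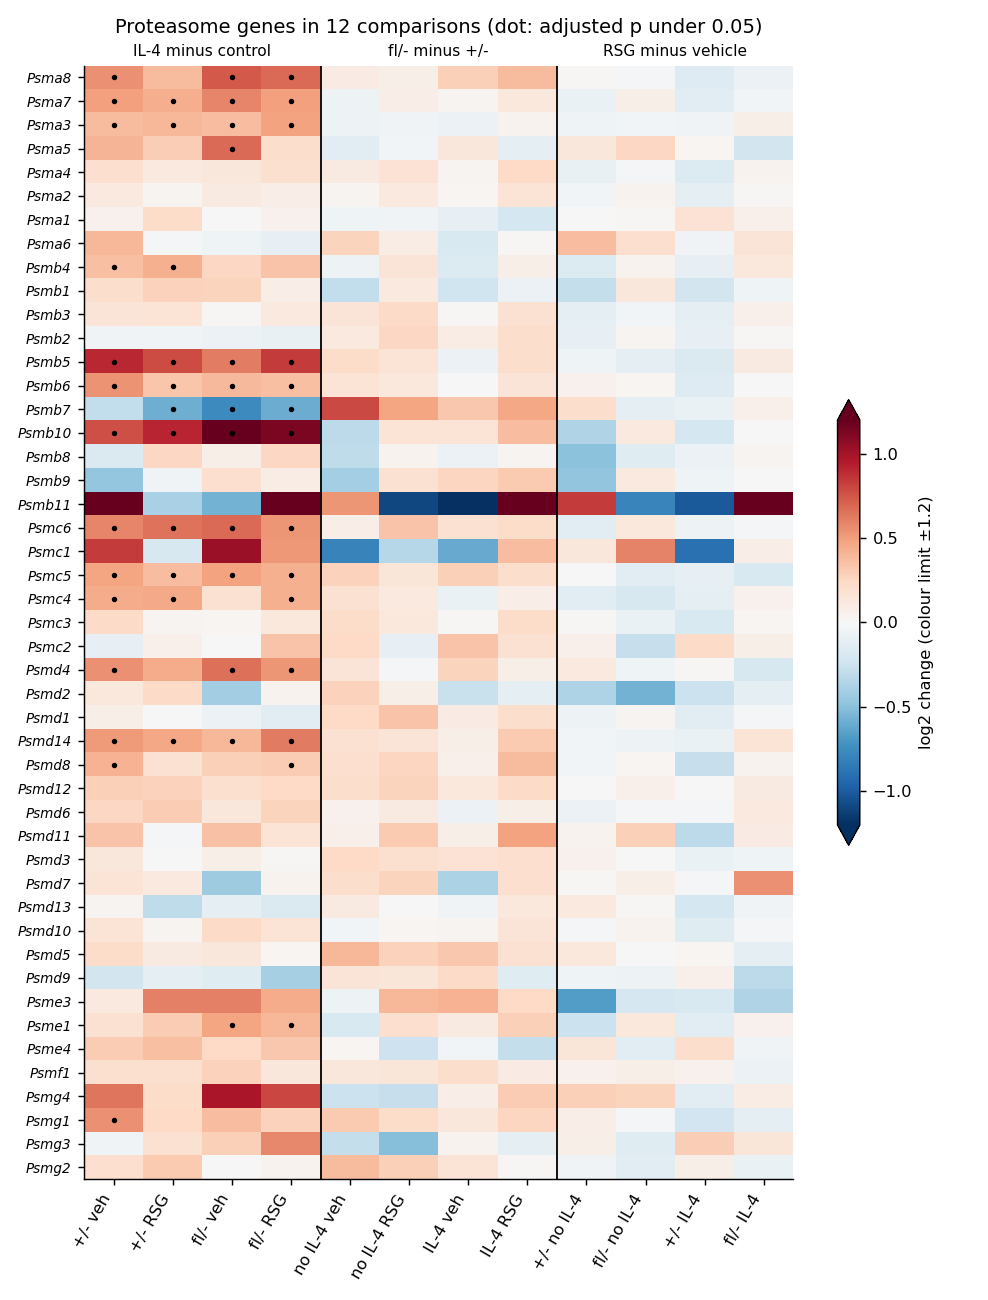
Log2 change (colour, limited to ±1.2) of each proteasome gene, ordered by role, in the 4 IL-4, 4 genotype and 4 RSG comparisons; a dot marks an adjusted p under 0.05 in limma. All dots are in the IL-4 columns, where Psmb7 alone is blue with a dot.

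RSG changed no proteasome gene past the threshold in any of its 4 comparisons. In limma, 3 genes reached an unadjusted p under 0.05 in Pparg+/- cultures without IL-4, 1 in Pparg+/- cultures with IL-4, 0 in Pparg fl/- cultures without IL-4 and 0 with IL-4, and the methods' t-test after adjustment called 0 in each. Of all 17737 genes tested, 968, 1372, 727 and 836 reached an unadjusted p under 0.05 in limma, in the same order. In the methods' t-test before adjustment, 2, 9, 1 and 0 of the 47 did, against 1192, 1460, 700 and 613 of all genes. Few genes of any kind passed: 0.0113% rose and 0.0113% fell in Pparg+/- cultures without IL-4, and 0.192% rose and 0.209% fell in Pparg+/- cultures with IL-4. With Pparg fl/- mice, 0% passed in either direction without IL-4, and 0.00564% rose and 0% fell with it. Among genes below an unadjusted 0.05, named after their values were seen, were Psme3 (-0.67 ± 0.29 SE, adjusted p = 0.84) and Psmb8 (-0.49 ± 0.22 SE, adjusted p = 0.87) in Pparg+/- cultures without IL-4. The Psmb8 value was -0.21 ± 0.21 without the control array of mouse 1.

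Genotype gave no call either. The cultures labelled Pparg fl/- and Pparg+/- were compared in 4 states, and limma passed 0 proteasome genes in each, with 5, 8, 2 and 7 at an unadjusted p under 0.05 (without IL-4 with vehicle and with RSG, then with IL-4 with vehicle and with RSG). Of all 17737 genes tested, 1644, 1609, 1416 and 2010 were at an unadjusted p under 0.05 in limma, in the same order. The methods' t-test after adjustment also passed 0. Before adjustment that t-test had 6, 6, 3 and 20 of the 47 genes under 0.05, in the same order. Of all 17737 genes it had 1966, 1668, 843 and 2598. Of all genes, 0% passed in either direction without IL-4 with vehicle, 0.0113% were higher and 0% lower without IL-4 with RSG, 0% passed with IL-4 and vehicle, and 0.564% were higher and 0.107% lower under IL-4 and RSG. All genes had median genotype differences of 0.08 to 0.12 in these comparisons. The following genes were named after their values were seen. Psmb7 differed by 0.79 ± 0.17 without IL-4 with vehicle (SE, adjusted p = 0.26) and 0.47 ± 0.17 without IL-4 with RSG (adjusted p = 0.42). Psmd5 differed by 0.40 ± 0.10 without IL-4 with vehicle (adjusted p = 0.29), and Psmd8 had the lowest adjusted p of all genotype comparisons, 0.13, at 0.38 ± 0.11 under IL-4 and RSG.

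The regulators of proteasome genes were read from a separate list. NRF1, encoded by Nfe2l1, is the transcription factor known to raise proteasome genes when proteasome activity falls, and NRF2, encoded by Nfe2l2, is its relative in the oxidative stress response. Of 7 genes of that list, 2 rose and 0 fell, against 25.3% and 16% of all genes. With array medians centred, 1 rose and 2, Ngly1 and Keap1, fell. Nfe2l1 had ratios of 0.69 to 1.04 without IL-4 and 0.999 to 1.805 with it and rose by 0.81 ± 0.10 (SE, adjusted p = 2.1e-06), higher in 12 of 12 pairs. Mafk, a small Maf partner of both factors, rose by 0.20 (adjusted p = 0.03), but had 0.11 and did not pass with medians centred (adjusted p = 0.2). Nfe2l2 had a change of 0.18 ± 0.10 (adjusted p = 0.18).

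Of 14 measured proteasome partners outside the symbol rule, 6 rose and 0 fell, against 25.3% and 16% of all genes. With medians centred 6 rose and 1, the lid component Sem1, fell. Akirin2, known for bringing proteasomes into the nucleus, rose by 1.15 ± 0.16, Zfand5, an activator of the 26S particle, by 0.76 ± 0.06, Rad23b, a shuttle for ubiquitinated proteins, by 0.62 ± 0.07, and Ecpas, a proteasome adaptor, by 0.53 ± 0.05 (SE, adjusted p of 6.2e-06, 1.1e-08, 2.4e-07 and 8.1e-08). None of these genes had a control array that reached the lowest array with IL-4, as was so for 5.87% of all genes. The arrays of the other measured partners overlapped. Usp14 and Ubqln1 also rose. Pomp, the maturation factor of the 20S core, had a change of 0.03 ± 0.05 (adjusted p = 0.68). The only measured gene of the ubiquitin and E1 list, the E1 enzyme Uba6, rose by 0.44 ± 0.07 (adjusted p = 5.6e-05).

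Genes of MHC class I peptide loading, the pathway that uses immunoproteasome products, rose in 6 of 12 cases, and 1, Canx, fell, against 25.3% and 16% of all genes. Calr and Nlrc5 fell as well with medians centred, which made 3. Erap1, which trims peptides, rose by 0.77 ± 0.08 and the heavy chains H2-K1 and H2-D1 by 0.76 ± 0.11 and 0.58 ± 0.14 (SE, adjusted p of 1.7e-07, 6.8e-06 and 0.0018). Tapbpl rose by 0.45 and B2m, the light chain, by 0.24. Tap1, which shares interferon control with Psmb9, had a change of -0.01 ± 0.27 (adjusted p = 0.98), with ratios from 0.315 to 2.3 without IL-4. In interferon-gamma signalling 5 of 9 genes rose and 3 fell, against 25.3% and 16% of all genes, and the counts were 5 and 3 with medians centred. Socs1, an inhibitor of JAK kinases, rose by 3.18 ± 0.30, Jak2 by 1.10 ± 0.09 and the receptor chain Ifngr1 by 0.69 ± 0.09, while Stat2, Irf9 and Irf8 changed by -0.61, -0.47 and -0.35. Irf1 did not pass with all arrays (0.46 ± 0.23 SE, adjusted p = 0.12). Without the control array of mouse 1 it had 0.67 ± 0.12 (adjusted p = 2e-04 in limma). That array was singled out by its high Irf1 ratio among others, so the second value is a description and not a test. No other gene of these pathway lists changed its call without that array.

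Markers of neutrophils, stromal cells and proliferation fell strongly with IL-4 in the same cultures, while most dendritic, T and NK and B markers did not pass. The counts below stand against 25.3% of all genes tested that rose and 16% that fell. Of neutrophil markers 7 of 8 fell, with a median change of -4.71 and a summed ratio of 12.6 to 27.8 without IL-4 and 0.986 to 3.09 with it, and S100a9 and Lcn2 reached the lowest value of the table on IL-4 arrays. Stromal markers fell in 6 of 7 cases, their summed ratio going from 9.05 to 41.3 without IL-4 to between 1.84 and 4.06 with it. Proliferation markers fell in 10 of 11 cases, from 17.1 to 59.8 to between 2.63 and 3.9, with Birc5 at the lowest value on an IL-4 array. Dendritic markers rose in 2 of 5 cases and fell in 0, with summed ratios of 2.7 to 7.15 and 5.22 to 10.2. T and NK markers fell in 1 of 6 (3 to 8.12 and 3.86 to 7.54) and B markers in 1 of 4 (3.56 to 7.08 and 1.62 to 4.65). Of the macrophage markers themselves Cd68 (not with medians centred), Adgre1 and Itgam rose and Csf1r, Mertk, Fcgr1 and Cd14 fell, with summed ratios of 8.73 to 29.3 and 6.35 to 27.9, and Lyz2 had a change of -0.97 ± 5.01 (SE). In bulk RNA, fewer cells of a type and less RNA per cell cannot be told apart. The part of these markers in the proteasome values was not tested.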

How the data were processed

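RNA from 24 macrophage cultures was hybridized to 1 array each. The deposited values are ratios: per the study's methods, the authors summarized probes by GC-RMA in GeneSpring 7.3, divided each array by its 50th percentile and each probe set by its median. A further division by vehicle controls described there was not seen in the table, where 82.2% of all probe sets and 98 of 100 proteasome probe sets had a median ratio within 0.005 of 1. No scanner files or depths were used; the number of arrays limits the precision.

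Probe sets at or above the array median on at least 3 arrays were kept (43349 of 45101, with 64 control probe sets removed). Of these annotations, 34945 probe sets carried 1 symbol. Log2 ratios were averaged per gene and fitted in limma 3.58.1 (R 4.3.3) with 8 group means and a trended prior, without a mouse block, as the methods describe unpaired tests. Adjustment was by Benjamini-Hochberg over 17737 genes, separately in each of 14 comparisons. By the number in the labels, read as the mouse, each mouse gave 4 cultures, while the p-values assume independent cultures. Deviations of same-mouse cultures from group means correlated between -0.05 and 0.0525, and the consensus correlation was 0.0365. Tables and plots used Python 3.11.15 with pandas 2.3.3, numpy 2.4.6 and matplotlib 3.10.9.

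Values by array were given for the catalytic genes, Psme1 and Psme2, with lowest, median and highest ratios for the largest passing changes (up to 8 each way); pathway lists gave fixed genes and up to 4 of the largest passing changes. Members and lists were chosen with earlier results of these data known. Alternatives covered centring, quantile normalization, an offset of 0.1, filters, probe-set summaries, the mouse block, a fit without trend, fits on the compared groups alone, the methods' t-test, and leaving out mice or single arrays. Psme2 by itself was not analysed here.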

Additional observations from a re-analysis of the deposited data

How the results depend on the processing

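Of 558 alternative values over 32 results, 525 kept their direction and side of the threshold. The mean IL-4 response had 25 calls with the mouse as a block, which shared 23 of the 24 rises and the fall (Psmc1 lost, Psmf1 gained), and 23 to 29 when 1 mouse was left out, the 29 without mouse 4 with 5 further genes. In the separate comparisons the block gave 13 and 14 calls with vehicle (Pparg+/-, Pparg fl/-) and 11 and 13 with RSG. The block changed no other member's call in the mean response. With the median of probe sets 27 genes rose in the mean response, with Psmc2, Psmd10 and Psmd11 gained. With the probe set of smallest spread 27 rose, with Psma6, Psmc2, Psmd10 and Psmd11 gained and Psmb1 lost. Leaving out 1 mouse gave 5 to 16 calls in Pparg+/- with vehicle, 7 to 20 in Pparg fl/- with vehicle, 1 to 14 in Pparg+/- with RSG and 7 to 13 in Pparg fl/- with RSG, and 22 in Pparg fl/- with vehicle without the IL-4 vehicle array of mouse 4. Limma on the 2 compared groups alone called 9, 1, 9 and 5 genes (Pparg+/- and Pparg fl/- with vehicle, then with RSG), and the methods' t-test 7, 2, 11 and 4, against 14, 13, 11 and 14. Shares of all genes are not given for these alternatives, apart from the methods' t-test above. Psmb9 ranged from -0.09704 to 0.01791 when 1 mouse was left out, positive without mouse 1 (0.01791) or mouse 6 (0.006517), and was 0.05322 without the control vehicle array of mouse 1. Immune minus constitutive in Pparg+/- with vehicle ranged from -0.5648 (without mouse 2) to 0.001142 (without mouse 1), and was 0.04762 without that array. The cause was not tested. Psmc1 missed the threshold in 10 settings. Signal over background could not be read from ratios.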

Other observations

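Probe sets of the same gene did not always give the same change with IL-4. Of 26 proteasome genes with more than 1 probe set, 16 had all probe sets within 0.5 of each other on the log2 scale and 11 had changes of both signs. Psmd11, with 8 probe sets, ranged from -0.89 to 0.59. Its fall was in a single probe set, and the others lay between 0.13 and 0.59. The probe sets of Psmc1 had changes of 0.14 and 0.96 and those of Psmg4 0.33 and 1.00, while those of Psma7 had 0.49 and 0.52.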
